A study of Mus musculus with 4 samples.

Results

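Endothelin and melanocortin signalling reaches melanocytes through receptors coupled to G proteins, and the genes described here are Ednrb, Ednra, Edn1, Edn3, Mc1r, Asip, Pomc, Gnaq, Gna11 and Gnas. The 10 names were given as a list, and every probe set whose platform annotation held exactly 1 of these symbols was taken. This gave 26 of 45037 non-control probe sets, from 8 genes: 3 of Ednrb, 1 of Edn1, 4 of Edn3, 2 of Mc1r, 2 of Pomc, 7 of Gnaq, 2 of Gna11 and 5 of Gnas. Ednra and Asip were not analysed here. Total RNA from 2 lines of mouse melanocytes, both with a Balb/c background, was hybridised to 4 arrays, 2 per line. The non-pigmented line carries a tyrosinase point mutation on both alleles. In the pigmented line, labelled wild type, that mutation had been corrected. Both lines came from skin and both were grown with TPA, a phorbol ester that activates protein kinase C, so no array was without it. The medium of both, RPMI, also held 2-mercaptoethanol. Each group is 1 cell line, so the correction and other differences between the lines cannot be told apart.

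Endothelins are small secreted peptides that endothelin-converting enzymes cut from larger precursors. In melanocytes and their neural crest precursors they bind the receptor encoded by Ednrb, which signals mainly through Gq and G11, the G proteins whose alpha subunits are encoded by Gnaq and Gna11, to phospholipase C, calcium and protein kinase C. Melanocortins are cut from the product of Pomc and bind the receptor encoded by Mc1r, which acts through Gs, encoded by Gnas, to raise cyclic AMP and eumelanin synthesis, while the agouti protein encoded by Asip opposes them. Loss of Ednrb or Edn3 in mice leaves unpigmented coat, and activating changes in Gnaq or Gna11 darken the skin.

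Only 1 of the receptor probe sets differed between the lines by the test used, so the start regions of both receptor genes are shown with that of Pomc, whose probe sets were lower on both pigmented arrays than on both others. Each is the 250 bases before the start in RefSeq (GRCm38.p6), read 5′ to 3′ on the gene's strand, with capitals marking matches to any of 4 motifs searched on both strands. The motifs were CATGTG and CACGTG (E-box cores that Mitf can bind), TGACGT (part of a cyclic AMP response element) and ACAAAG (a form of the Sox motif). The first gene, Ednrb, is at chr14:103843702-103843951 on the minus strand, Mc1r is at chr8:123406832-123407081 on the plus strand, and Pomc is at chr12:3954695-3954944 on the plus strand.
Ednrb: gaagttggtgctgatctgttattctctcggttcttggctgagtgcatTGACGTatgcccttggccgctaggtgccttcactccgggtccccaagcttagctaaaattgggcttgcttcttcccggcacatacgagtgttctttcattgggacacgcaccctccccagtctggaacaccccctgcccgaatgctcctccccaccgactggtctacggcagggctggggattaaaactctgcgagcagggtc
Mc1r: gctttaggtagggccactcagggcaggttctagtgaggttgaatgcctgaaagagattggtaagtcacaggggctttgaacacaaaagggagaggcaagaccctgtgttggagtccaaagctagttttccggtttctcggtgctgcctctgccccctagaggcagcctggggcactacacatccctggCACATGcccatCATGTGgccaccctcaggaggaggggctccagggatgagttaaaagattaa
Pomc: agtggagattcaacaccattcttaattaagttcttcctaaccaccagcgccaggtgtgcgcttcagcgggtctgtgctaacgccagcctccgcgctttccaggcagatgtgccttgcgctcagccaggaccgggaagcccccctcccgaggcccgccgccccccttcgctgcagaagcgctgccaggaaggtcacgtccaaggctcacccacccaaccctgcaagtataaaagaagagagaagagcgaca
In Ednrb, TGACGT began 203 bases before the start. In Mc1r, CACATG (the reverse complement of CATGTG) and CATGTG began 62 and 51 bases before it, and Pomc held no match. Of 32851 start regions of the same length, 12.3% held CATGTG, 6.02% CACGTG, 6.47% TGACGT and 16.5% ACAAAG. Among the 12 starts listed for 9 of the 10 genes, CATGTG was found at 2, TGACGT at 1 and the other motifs at 0.

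The deposited arrays had a common trimmed mean, and values are given as deposited signal (a linear intensity) or as log2(signal + 16). The median signal per array was 99.7 to 130. In the control probe sets of Gapdh, the 3′ to 5′ signal ratio was 0.903 and 0.864 on replicate 1 of the non-pigmented and the pigmented line, but 20.2 and 16.8 on replicate 2 of each. Replicate 1 is termed intact and replicate 2 low in 5′ signal. The melanocyte label was checked on 12 marker genes. Sox10 gave signals from 8268 to 10232 on the 4 arrays. In the non-pigmented line Kit gave 62.4 and 72.1, Oca2 104 and 115, Gpr143 87.8 and 166, and Tyr 214 and 67.2. The remaining markers apart from Sox10 ran from 796 (Mitf) to 9313 (Tyrp1) in that line. Summed over the 12 markers, the signal was 16904 and 28871 in the non-pigmented line and 141880 to 151022 in the pigmented line. The lines did not overlap in any of the 12, with the pigmented line higher in all, beside 26.5% of all probe sets tested. Limma called 8 of them, among them Kit, Dct and Tyr, beside 1.95% of all genes read through 1 probe set each. Of 9 tested Schwann cell and neural crest progenitor markers, 8 had a negative difference and 7 an unadjusted p under 0.05, beside 12.3% of all genes. Of the 7, Mal was higher in the pigmented line. Limma called 3 (Mbp, S100b and Nes), all lower there, and summed signals over the list were 22961 to 27923 against 2649 to 3631. Without non-pigmented replicate 2 the limma adjusted p of S100b was 0.0677 and that of Nes 0.0563. Among 3 keratinocyte, 4 fibroblast, 1 endothelial and 4 immune markers tested, 0 were called by limma. An unadjusted p under 0.05 was found for 2, 1, 0 and 0, beside the same 12.3% of all genes. The summed keratinocyte signal was 831 to 862 in the non-pigmented and 425 to 450.4 in the pigmented line. Krt10 gave 306 and 264 against 8.84 and 39.4, and Pkp1 309 and 346 against 68.0 and 27.1. Krt5 went the other way, with 91.4 and 104 against 195 and 214. The fibroblast sum was 829 to 1029 against 1565 to 1711. Col1a2 gave 200 and 348 against 1222 and 1176, whereas Col1a1 and Col3a1, also tested, had negative differences. Neither list had a common direction. In such bulk RNA, fewer cells of a type and less RNA per cell cannot be told apart. The part of these marker differences in the results below was not tested.

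One of the 26 probe sets, Ednrb 1437347_at, rose in the pigmented line, and the receptor Mc1r and the 3 G protein alpha subunit genes showed no called difference. Differences were tested with limma over all probe sets whose mean over the 4 arrays reached the 40th percentile (log2 6.44, a signal of 70.7), and a probe set was called at an adjusted p under 0.05. Of the 26, 18 from 7 genes passed that filter, and 1 of 18 was called, beside 1.49% of all 27022 probe sets tested (0.585% higher and 0.903% lower). With 18 probe sets, 1 call is too few to set a share against that background. The signals of the lines did not overlap in 7 of the 18, beside 42.6% of all probe sets. The pigmented line was the higher in 6 of these and the lower in 1, beside 26.5% and 16.1%. The median log2 difference (pigmented minus non-pigmented) of the 18 was 0.29, against 0.16 over all probe sets tested. Nothing in the labels says whether a line's arrays came from separate cultures, so p-values measure the spread between these arrays, which may be technical, and an exact permutation test of 2 against 2 cannot go below p = 0.333.

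**Figure D1:**
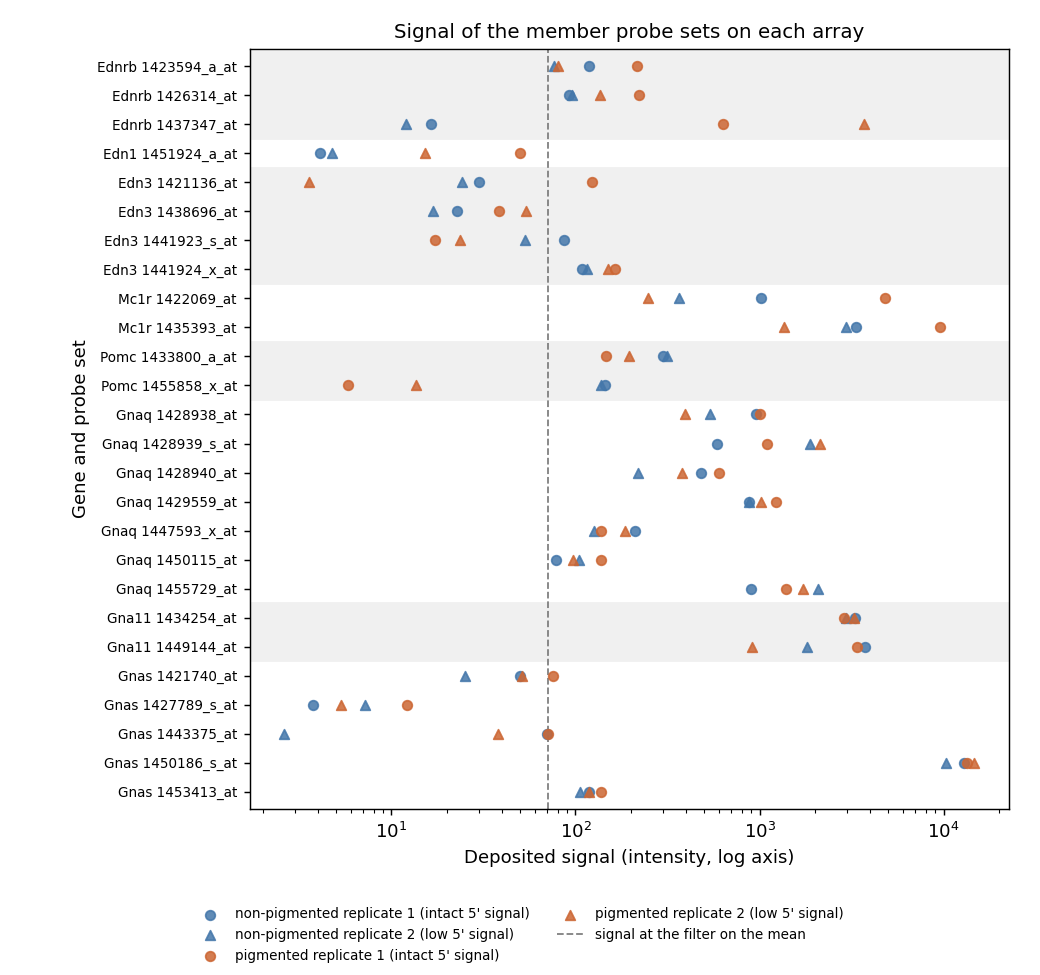
Deposited signal (log axis) of the 26 probe sets on the 4 arrays, with colour for the line and circles or triangles for the arrays with intact or low 5′ signal; the dashed line is the signal of 70.7 that corresponds to the filter on the mean. Ednrb 1437347_at spans 12.0 to 3706, and the circle and triangle of the pigmented line lie far apart for Mc1r.

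Ednrb encodes the endothelin B receptor. The signal of probe set 1437347_at was 16.3 and 12.0 on non-pigmented replicates 1 and 2 and 635 and 3706 on pigmented replicates 1 and 2. Both pigmented arrays were thus above both non-pigmented ones, but they differed from each other by 2.51 on the log2 scale. On the log2 scale the pigmented mean was 10.60 ± 1.78 (SD, n = 2). The non-pigmented mean was 4.91 ± 0.15 (SD, n = 2). The log2 difference was 5.69 ± 0.86 (SE from limma, 95% interval 3.60 to 7.79), or 51.8-fold on this scale, with an adjusted p of 0.0431. The intact arrays alone gave 4.33, and the arrays of low 5′ signal alone gave 7.06. The non-pigmented signals lay below the filter value, so the size depends on the pseudocount: it was 6.68 with a pseudocount of 1 and 4.38 with 64.

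The call of Ednrb was near the threshold. The limma adjusted p was 0.0705 without the filter, 0.0693 with a pseudocount of 64, 0.0776 without non-pigmented replicate 1 and 0.0982 without non-pigmented replicate 2. Without pigmented replicate 2 the probe set fell below the filter and was not tested. Over the 13 alternatives that tested it, the adjusted p ranged from 0.00372 to 0.0982, and all 13 had the same direction.

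The other 2 Ednrb probe sets gave much smaller differences. For 1426314_at the signal was 92.0 and 95.7 in the non-pigmented and 221 and 136 in the pigmented line. The lines did not overlap, and the log2 difference of 0.79 (95% interval -0.42 to 2.01) had a limma adjusted p of 0.631. For 1423594_a_at the signal was 119 and 76.4 against 217 and 80.9. Here the lines overlapped, with a log2 difference of 0.43 (95% interval -1.07 to 1.93) and a limma adjusted p of 0.856. The interval of 1437347_at begins above the upper end of both. The disagreement within the gene itself was not tested, and where each probe set lies on the transcript was not used here.

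Of the 5 probe sets of the endothelin ligands, 4 lay below the filter. Edn1 (endothelin 1) had 1 probe set, 1451924_a_at, with signals of 4.10 and 4.77 in the non-pigmented and 50.3 and 15.3 in the pigmented line. All 4 lay below the filter value, so it was not tested. Edn3 encodes endothelin 3, the ligand that melanocyte precursors need. Its probe set 1441924_x_at, the 1 of 4 that passed the filter, had signals of 109 and 116 against 165 and 150, without overlap, and a log2 difference of 0.43 (95% interval -0.70 to 1.56, limma adjusted p of 0.802). The name ending _x_at marks probes that may also bind other transcripts. The remaining 3 Edn3 probe sets, not tested, differed by 0.28, 0.79 and -1.21 on the log2 scale. For 1441923_s_at, the last of these, the signal was 87.1 and 52.9 in the non-pigmented and 17.3 and 23.7 in the pigmented line. The Edn3 probe sets therefore had no common direction. In the RefSeq table Edn3 and Gnas are both on chromosome 2, with 6 protein-coding genes between them.

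Mc1r, the melanocortin 1 receptor, varied more between the arrays of the pigmented line than between the lines. Probe set 1435393_at gave signals of 3333 and 2945 in the non-pigmented line, and 9600 and 1361 in the pigmented line. Probe set 1422069_at gave 1014 and 363, and 4786 and 249. In both, pigmented replicate 1 was the highest of the 4 arrays and pigmented replicate 2 the lowest, so the non-pigmented arrays lay between them. The log2 differences were 0.21 (95% interval -1.96 to 2.38, limma adjusted p of 0.956) and 0.85 (95% interval -2.46 to 4.16, limma adjusted p of 0.872). Both intervals are wide, and neither direction can be read from them.

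The direction for Mc1r turned between the pairs of arrays. Between the intact arrays the log2 difference was 1.52 for 1435393_at and 2.22 for 1422069_at. Between the arrays of low 5′ signal it was -1.10 and -0.52. Within the pigmented line the array with low 5′ signal was lower than the intact one by log2 differences of -2.80 and -4.18, and within the non-pigmented line by -0.18 and -1.44. The Gapdh 3′ to 5′ ratio rose in both lines, from 0.864 to 16.8 on the pigmented arrays and from 0.903 to 20.2 on the non-pigmented ones. Its part in these values was not tested. Without pigmented replicate 1 the log2 differences between the lines were -1.19 and -1.24.

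Pomc, the precursor of the melanocortins, was lower on both pigmented arrays in both of its probe sets, and neither difference was called. Probe set 1433800_a_at gave signals of 298 and 315 in the non-pigmented and 146 and 194 in the pigmented line. The log2 difference was -0.80 ± 0.46 (SE, 95% interval -1.93 to 0.33), with a limma adjusted p of 0.599, the lowest among the 17 uncalled members. Probe set 1455858_x_at, whose name also marks probes that may bind other transcripts, gave 144 and 138 against 5.80 and 13.7, a log2 difference of -2.63. The pigmented signals lay below the pseudocount of 16, so that size depends on it. The mean of this probe set lay below the filter, and with no filter the limma adjusted p was 0.163. Between the intact arrays the former differed by -0.95 and the latter by -2.88, and between those of low 5′ signal by -0.65 and -2.37.

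**Figure D2:**
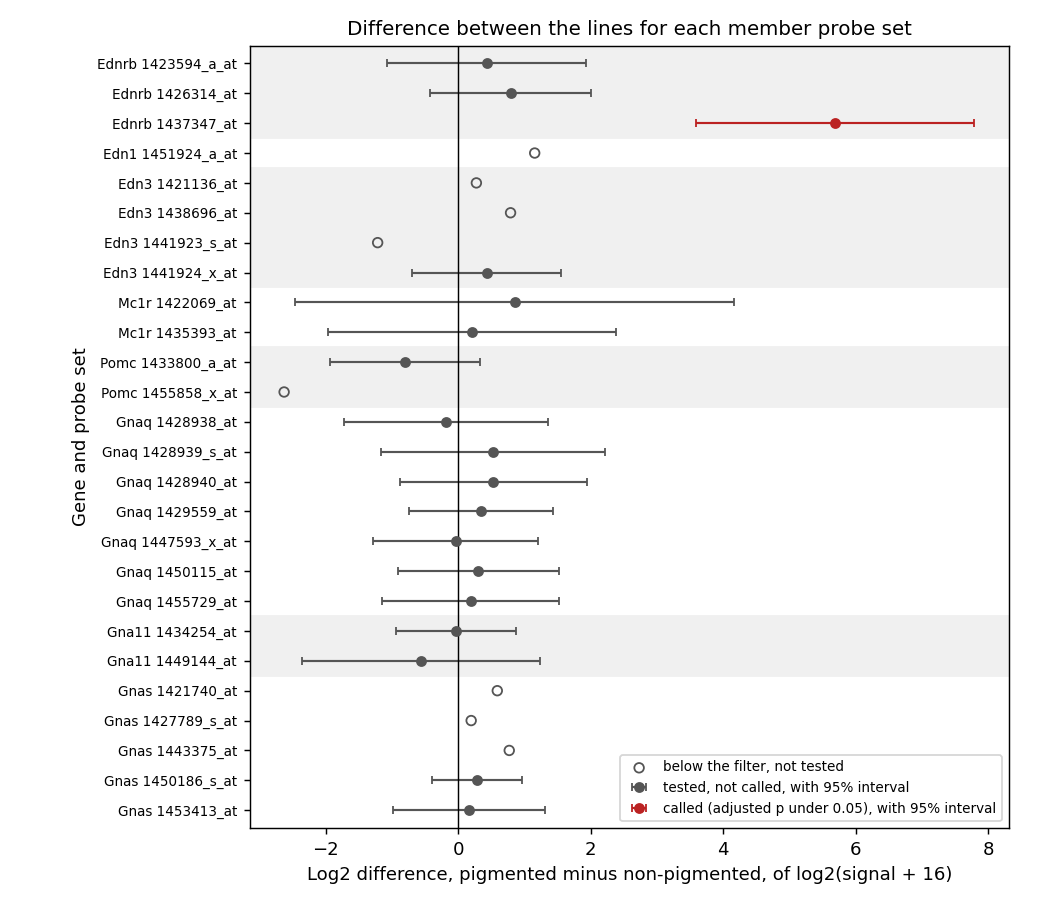
Log2 difference between the lines (pigmented minus non-pigmented) for each of the 26 probe sets, with the 95% interval from limma for the 18 that were tested and open circles for the 8 below the filter. The interval of Ednrb 1437347_at, 3.60 to 7.79, lies to the right of 0, and the intervals of the other 17 include 0.

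Gnaq and Gna11 encode closely related alpha subunits that link endothelin receptors to phospholipase C. None of the 7 Gnaq and 2 Gna11 probe sets was called by limma, and 0 had an unadjusted p under 0.05. The 7 log2 differences of Gnaq ran from -0.18 to 0.53 with a median of 0.31. For 1429559_at the signals were 880 and 877 in the non-pigmented and 1231 and 1022 in the pigmented line, the only Gnaq probe set without overlap. Its log2 difference was 0.35, with a 95% interval of -0.73 to 1.43 and a limma adjusted p of 0.836. For 1455729_at they were 896 and 2068 against 1398 and 1731, a log2 difference of 0.19 (95% interval -1.15 to 1.53), which turned to -0.055 when the arrays were centred on their medians.

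Gna11 1434254_at had similar levels on all 4 arrays, with signals of 3316 and 2939 in the non-pigmented and 2861 and 3259 in the pigmented line. The log2 difference was -0.032 (95% interval -0.94 to 0.88, limma adjusted p of 0.986), and 0.045 with quantile normalization. Gna11 1449144_at gave 3723 and 1799 against 3361 and 906, with both arrays of low 5′ signal below both intact ones. Its log2 difference between the lines was -0.56 (95% interval -2.36 to 1.23, limma adjusted p of 0.841).

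Gnas encodes the alpha subunit of Gs, and its locus also makes other overlapping transcripts that these values cannot separate. Probe set 1450186_s_at gave signals of 12923 and 10259 in the non-pigmented and 13411 and 14660 in the pigmented line. Both pigmented arrays were higher, by a log2 difference of 0.28 (95% interval -0.39 to 0.96, limma adjusted p of 0.775). Probe set 1453413_at gave 118 and 106 against 137 and 118, a log2 difference of 0.16 (95% interval -0.98 to 1.31) that became -0.073 with quantile normalization and -0.082 with median centring. The other 3 Gnas probe sets had signals from 2.62 to 75.3 and were not tested, with log2 differences of 0.20, 0.59 and 0.77. All 5 differences were thus positive as deposited.

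**Figure D3:**
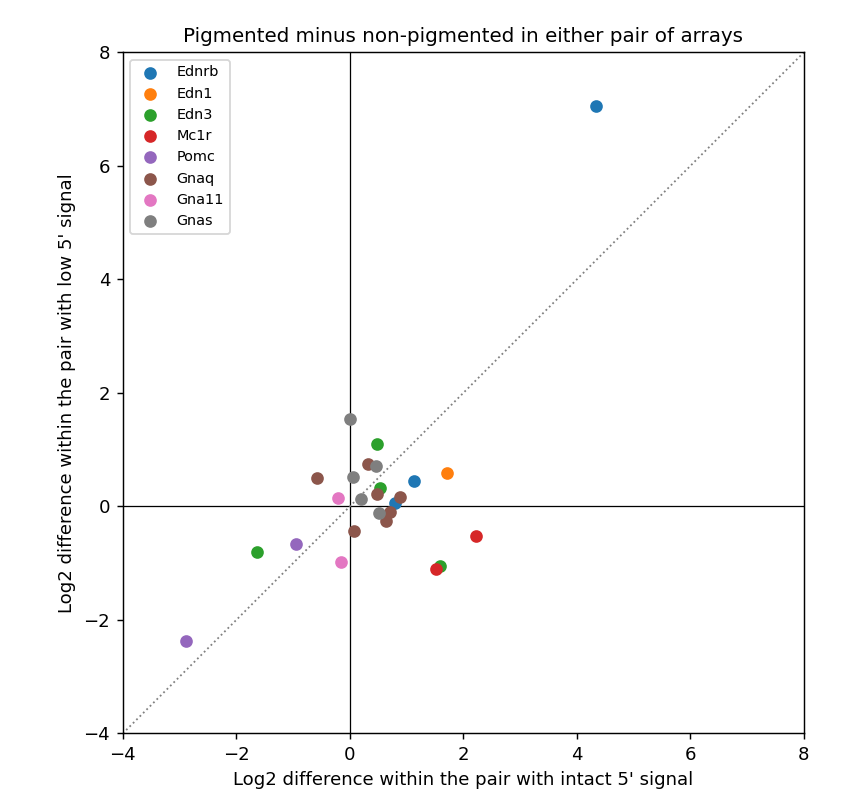
Log2 difference between the lines for the arrays of intact 5′ signal (x axis) and for those of low 5′ signal (y axis), 1 point per probe set coloured by gene, with a dotted line of equality. Ednrb 1437347_at stands at 4.33 and 7.06, both Pomc probe sets lie at the lower left, and both Mc1r probe sets lie in the lower right, where the direction turns.

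Several member probe sets differed more between the 2 arrays of a line than between the lines. Of the 7 Gnaq probe sets, 3 were lower and 2 higher on the array with low 5′ signal in both lines. For 1428938_at the log2 difference between those arrays (low 5′ signal minus intact) was -0.81 in the non-pigmented and -1.32 in the pigmented line. For 1428939_s_at, a probe set of the same gene, it was 1.65 and 0.94. In signal, 1428938_at gave 951 and 537 in the non-pigmented and 1004 and 392 in the pigmented line, whereas 1428939_s_at gave 588 and 1875 and then 1097 and 2118. Over the 18 tested members 8 were lower and 3 higher in both lines, beside 33.5% and 33.8% of all probe sets tested. Between the lines, 11 of the 18 had the same direction in both of these pairs, beside 68.5% of all, and 9 of the 18 in both of the dates that the titles carry, beside 49.7%. The part of RNA integrity in these values was not tested. Blocking limma by integrity pair called 4.64% of all probe sets, and among the members the call was again Ednrb 1437347_at alone (adjusted p of 0.0140).

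**Figure D4:**
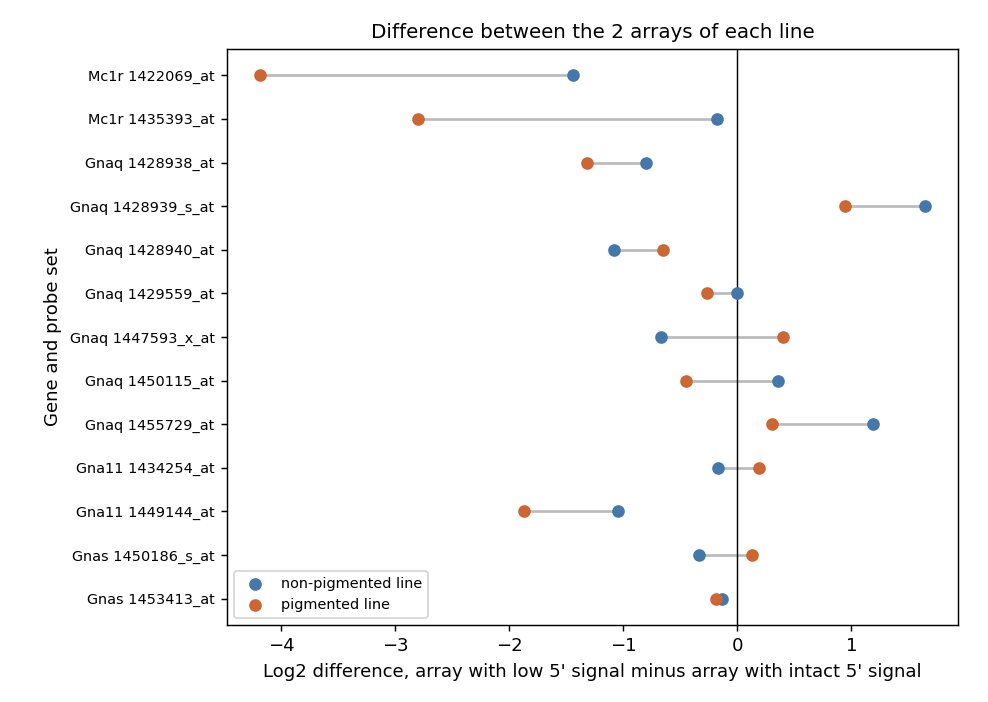
Log2 difference between the 2 arrays of each line (low 5′ signal minus intact) for the 13 tested probe sets of Mc1r, Gnaq, Gna11 and Gnas, blue for the non-pigmented and orange for the pigmented line. Gnaq 1428938_at and 1428939_s_at lie on opposite sides of 0 in both lines, and Mc1r 1422069_at reaches -4.18 in the pigmented line.

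The neighbouring steps of the pathways were read from 8 lists of 139 further genes, each gene through its brightest probe set. The lists were chosen with earlier results of these data known. Shares above those of all genes may reflect that choice, and enrichment was not tested. Of 101 tested, 2 rose (Ece1 and Gng4) and 5 fell (Mme, Itpr3, Ptk2b, Nfatc2 and Rgs16) in the pigmented line, or 6.93%, beside 1.95% of all 12558 genes read in that way (0.788% higher and 1.16% lower). The median log2 difference of the 101 was -0.077, against 0.068 over all genes. When limma was run on 1 probe set per gene, 12 of the 101 passed, beside 3.36% of all genes in that fit. Blocked by integrity pair, 16 passed, beside 5.84% of all genes. An unadjusted p under 0.05 was found for 30 of the 101 (29.7%), beside 12.3% of all genes. Fewer list genes, and fewer of all probe sets tested, were called by adjusted p when either non-pigmented array was left out.

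Among the 5 tested genes of endothelin processing and clearance, 1 rose, 1 fell and 3 did not pass. An unadjusted p under 0.05 was found for 2 (all genes, 12.3%). Ece1, an endothelin-converting enzyme, had signals of 17.1 and 26.8 in the non-pigmented and 702 and 837 in the pigmented line. The groups did not overlap, and the log2 difference was 4.38 ± 0.47 (SE, limma adjusted p of 0.0192), positive in all 3 of its probe sets. The non-pigmented signals lay below the filter value, so the size depends on the pseudocount, with 5.10 at a pseudocount of 1 and 3.27 at 64. Mme, the peptidase neprilysin that breaks down endothelins and other peptides, gave 841 and 1769 against 80.0 and 52.6. It fell by a log2 difference of -3.93 ± 0.56 (SE, limma adjusted p of 0.0378), with both probe sets in that direction. Without non-pigmented replicate 1 or 2 neither Ece1 (limma adjusted p of 0.0681 and 0.0597) nor Mme (0.0549 and 0.151) passed. Without the filter the limma adjusted p of Mme was 0.0618. Of the genes that did not pass, Ece2, a second converting enzyme chosen after its values were seen, had 797 and 191 against 691 and 222, with both low values on the arrays of low 5′ signal.

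Of 20 tested Gq effectors, 3 fell and 17 did not pass, and 10 had an unadjusted p under 0.05 (all genes, 12.3%). Ptk2b, a kinase activated by calcium, had signals of 1457 and 2116 in the non-pigmented and 12.3 and 29.3 in the pigmented line, a log2 difference of -5.63 ± 0.51 (SE, limma adjusted p of 0.0158). The pigmented signals lay below the filter value, and the difference was -6.45 at a pseudocount of 1 and -4.43 at 64. It passed in all 14 alternatives, though its other probe set had the opposite sign. Nfatc2, a transcription factor that calcineurin activates, gave 1351 and 1928 against 87.7 and 92.9. It differed by -3.94 (limma adjusted p of 0.0233, 3 of 6 probe sets in that direction). Itpr3, a calcium channel opened by inositol trisphosphate, gave 2442 and 3524 against 351 and 162. It differed by -3.53 (limma adjusted p of 0.0490). Without non-pigmented replicate 1 or 2 the p of Nfatc2 was 0.0664 and 0.113. Itpr3 did not pass in 8 of 14 alternatives, with limma adjusted p of 0.127, 0.235 and 0.0725 without non-pigmented replicate 1, non-pigmented replicate 2 and pigmented replicate 2. Plcb4, a phospholipase C chosen after its values were seen, gave 1327 and 3542 against 224 and 256. It differed by -3.09, with a limma adjusted p of 0.0903, of 0.0188 blocked by integrity pair and of 0.142 blocked by title date. Rasgrp3, chosen in the same way, differed by 2.54, with limma adjusted p of 0.0807, 0.0207 and 0.242 in the same fits. Prkcq, a protein kinase C isoform chosen here after its values were seen, gave 328 and 288 against 2760 and 1981. Its log2 difference of 2.86 had a limma adjusted p of 0.0533, of 0.0117 blocked by integrity pair and of 0.158 blocked by title date. It passed in 3 of 14 alternatives, over which the adjusted p ranged up to 0.278. The list median was -0.17, with 10 positive and 10 negative differences. Blocked by integrity pair, 2 of the list rose and 4 fell, beside 5.84% of all genes called in that fit.

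Of 14 tested G protein beta and gamma subunits, 1 rose and 13 did not pass, beside 1.95% of all genes called in either direction. An unadjusted p under 0.05 was found for 3, beside 12.3% of all genes. Gng4, a gamma subunit, had signals of 94.0 and 68.2 in the non-pigmented and 1655 and 4326 in the pigmented line. The log2 difference was 4.81 ± 0.61 (SE, limma adjusted p of 0.0269), and 2 of the 3 Gng4 probe sets had that sign. The adjusted p was 0.0589 and 0.0922 without non-pigmented replicates 1 and 2. Gnb4, a beta subunit chosen after its values were seen, differed by 2.97, with a limma adjusted p of 0.110. It was 0.0232 blocked by integrity pair and 0.156 blocked by title date. Blocked by integrity pair, 2 of that list rose, beside 5.84% of all genes called. Of 15 tested genes of receptor desensitisation, 1 fell and 14 did not pass. There 5 had an unadjusted p under 0.05 (all genes, 12.3%), and 2 fell when blocked by integrity pair. Rgs16, which speeds the return of Gi and Gq to the inactive state, gave 1040 and 383 against 22.6 and 16.3, a log2 difference of -4.20 ± 0.62 (SE, limma adjusted p of 0.0398), with all 3 probe sets in that direction. The pigmented signals lay below the filter value, and the difference was -4.97 at a pseudocount of 1 and -3.07 at 64. The adjusted p was 0.0809 without the filter and 0.0557 with a pseudocount of 64, and without non-pigmented replicate 1 the gene fell below the filter. Arrb1, an arrestin chosen after its values were seen, gave 830 and 3435 against 69.3 and 55.5. The log2 difference was -4.45, with a limma adjusted p of 0.0569, of 0.0186 blocked by integrity pair and of 0.0303 blocked by title date. It passed in 6 of 14 alternatives, over which the adjusted p ranged up to 0.138.

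In the remaining 4 lists limma called 0 genes, and with an unadjusted p under 0.05 there were 1 of 7 in the melanocortin system, 7 of 22 Gs and cyclic AMP effectors, 2 of 10 phosphodiesterases and 0 of 8 other alpha subunits, beside 12.3% of all genes. Blocking by integrity pair gave 0, 3, 1 and 0 calls, beside 5.84% of all genes. The 3 were Adcy2 (2.61) and Adcy3 (2.40), which make cyclic AMP, and Prkar2b (-2.32), a regulatory subunit of protein kinase A, all named after their values were seen. Blocked by title date their limma adjusted p was 0.274, 0.247 and 0.378, and they passed in 1, 2 and 2 of 14 alternatives. In the melanocortin list the gene with an unadjusted p under 0.05 was Prcp, a peptidase, with a log2 difference of -1.19 and a limma adjusted p of 0.427. That sign was seen in 2 of its 4 probe sets. The median of that list was -0.56. Prcp and the phosphodiesterases and alpha subunits named next were chosen after their values were seen. Among phosphodiesterases, Pde4d had signals of 4.23 and 106 against 739 and 817, a log2 difference of 3.99 with a limma adjusted p of 0.126 (0.0317 blocked by integrity pair, 0.0588 by title date, passed in 2 of 13 alternatives), and Pde7a differed by 1.63 (adjusted p of 0.398). Of the 8 other alpha subunits 7 had negative differences, with a list median of -0.38, against 0.068 over all genes. Among them were Gna13 (-1.03), Gnai3 (-0.98) and Gnai2 (-0.42), with limma adjusted p of 0.508, 0.603 and 0.692. Gna12, at -0.055, had 1 of its 5 probe sets in that direction.

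**Figure D5:**
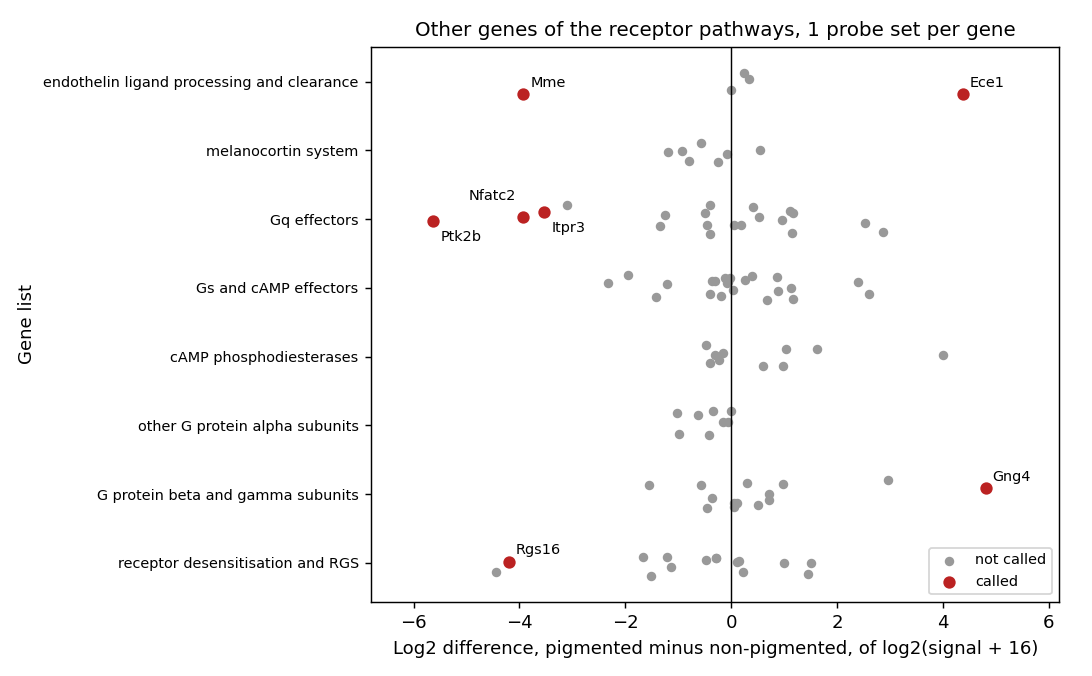
Log2 difference between the lines (pigmented minus non-pigmented) for the 101 tested genes of the 8 lists, 1 point per gene with vertical scatter for visibility, red where called. The 7 called genes lie beyond 3 log2 units on either side, and 4 lists have none.

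The genes nearest to Ednrb 1437347_at in pattern over the 4 arrays were Osmr, Gm26588 and Dkk3. The other 2 Ednrb probe sets, which were highest on pigmented replicate 1, were not used for this. Nearness was the root mean square difference between log2 values centred on each gene's own mean. It was 0.38, 0.38 and 0.45 for Osmr, Gm26588 and Dkk3. The median over all 12558 genes was 2.97, a value set largely by how widely 1437347_at itself varied, so it gives no background for them. Osmr, the oncostatin M receptor gene, gave signals of 48.0 and 30.1 in the non-pigmented and 2175 and 7733 in the pigmented line. Dkk3 gave 104 and 156 against 3430 and 10247, and Gm26588 gave 71.6 and 44.1 against 871 and 5886. In all 3, as in Ednrb 1437347_at, pigmented replicate 2 was the highest array. The 3 genes were picked for their nearness, so this likeness follows from the choice, and it rests on 4 arrays.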

How the data were processed

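Signals were deposited for 4 arrays as intensity values on a linear scale, made by the authors with Affymetrix Expression Console per the submitters' processing notes. Its version and summary algorithm are not given in the sources used here. The mean intensity after trimming 2% at either end was 500.0 in each deposited column. The files used here held no detection column. Of 45101 probe sets, 64 controls were left out. The platform annotation gave a single symbol for 34945 probe sets, several for 932 and none for 9160.

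The fit was limma 3.58.1 in R 4.3.3 (lmFit, eBayes with an intensity trend) on log2(signal + 16), with no other term, over the 27022 probe sets at or above the 40th percentile of the mean. P-values were adjusted by Benjamini-Hochberg over all of them. The fit ran per probe set because the genes described were defined by probe set. Errors are SDs of 2 arrays or SEs from limma, and the number of arrays limits the precision. The code was tested on simulated data.

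The members, the lists, the tests and the alternatives were chosen with earlier results of these data known. Named genes were every member, the called genes of each list (up to 4), and the 3 genes nearest to Ednrb. Other list genes are marked as chosen after their values were seen, and marker genes serve as checks. Across probe sets, the deviations of arrays that share a title date correlated at -0.52. This value cannot tell a part of the date from that of RNA integrity. With 2 arrays per line this is the value for the RNA integrity pairs (0.52; a Gapdh 3′ to 5′ ratio above 3 or not) with its sign turned. Alternatives were 2 normalizations, 2 filters, 2 pseudocounts, no trend, 2 blocks, 1 probe set per gene, and leaving out each array. Start regions came from RefSeq (GRCm38.p6), and those of 1 chromosome were not used here. Figures used matplotlib 3.10.9 in Python 3.11.15.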

Additional observations from a re-analysis of the deposited data

How the results depend on the processing

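Counts of calls depended on the arrays and the filter. Without the filter limma called 251 probe sets in place of 402, 0 members in place of 1 (0 of 26, with Ednrb 1437347_at at an adjusted p of 0.0705) and 4 list genes in place of 7. With a replicate block by RNA integrity pair the counts were 1255 probe sets and 16 list genes, and with a replicate block by title date 378 probe sets, 1 member and 7 list genes. The fit of 1 probe set per gene called 12 list genes, and a pseudocount of 64 called 0 members. Leaving out single arrays gave 113 to 739 probe sets, 0 to 1 members and 2 to 9 list genes, the lone array of a line being assumed to vary like the others. The title date as a block ended the call of Itpr3 (adjusted p of 0.0647) and of no other named called gene.

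Over the member probe sets and alternatives, 221 values kept their direction and side of the threshold, 4 lost the call (all Ednrb 1437347_at) and 18 turned in sign. Quantile normalization and median centring moved the median of all tested probe sets by -0.11 and -0.24. Median centring turned Mc1r 1435393_at to -0.036, Gnaq 1455729_at to -0.055, Gnas 1453413_at to -0.082 and, outside the members, Sox10 to -0.087. Quantile normalization turned Gna11 1434254_at to 0.045 and Gnas 1453413_at to -0.073. The other turns came from leaving out single arrays, where Ednrb 1423594_a_at ranged from -0.20 to 1.06, Mc1r 1422069_at from -1.24 to 2.94 and Mc1r 1435393_at from -1.19 to 1.61. For Gnaq the ranges were -0.84 to 0.48 (1428938_at), -0.30 to 1.35 (1428939_s_at), -0.0078 to 1.08 (1428940_at), -0.37 to 0.30 (1447593_x_at) and -0.41 to 0.79 (1455729_at). For Gna11 they were -0.13 to 0.062 (1434254_at) and -1.50 to 0.37 (1449144_at). None of these was called in any setting, and the cause was not tested.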
